A study of Homo sapiens with 12 samples.

Results

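The amount of DNA along the genome was compared between the clear cell renal cell carcinoma lines that the labels call 769 and 786, from libraries made with the restriction enzyme MspI. MspI cuts the sequence CCGG whether or not its inner cytosine is methylated, so the number of tags from a stretch of genome follows how much of that DNA was present. All 6 MspI libraries of the series were used, 3 for each line, out of 12 libraries in all. The other 6 were cut with HpaII, which needs an unmethylated site, and serve here only as a second set of libraries from the same DNA. Each line had 1 untreated control DNA sample and 2 samples from cells given ascorbic acid (AA), vitamin C, which helps TET enzymes to act on methylated cytosine. The labels give the AA samples the numbers 1 and 2 and give neither dose nor time. They also do not say whether the samples came from separate cultures, so SDs and p-values measure the spread between these samples, which may be technical. No DNA from normal tissue was used, and nothing further about the identity of the lines is given.

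Clear cell renal cell carcinoma arises from the epithelium of the proximal tubule. Its founding change is usually loss of the short arm of chromosome 3 together with mutation of VHL, the part of a ubiquitin ligase that marks hypoxia-inducible factors for destruction. PBRM1 and SETD2, which act on chromatin and are often mutated in the same tumours, lie on that arm as well. Gain of 5q, loss of 14q, which carries HIF1A, and loss of 9p, which carries the cell cycle inhibitors CDKN2A and CDKN2B, are among the other frequent changes. In the lists used here 8 arms are often lost in renal carcinoma and 10 are often gained.

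Nuclear MspI tags numbered 11433766 in the 769 control, 5012453 and 3473118 in its AA samples, 8340033 in the 786 control and 5695618 and 6077281 in the 786 AA samples. Every value below is a library's share of its own nuclear tags, so a difference of 0 on the log2 scale means the same share of the genome and not the same number of copies. Tags were PCR-amplified and carry no molecular identifiers, so no fold is read from a count of 0 tags. The "level" of a region is its tags per reference CCGG site divided by the median of bins with a like density of CCGG sites in the same library, so that 1 is the typical bin of that line.

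The arms of the 2 lines differed widely. Of 39 arms, 30 were called (76.9%; edgeR quasi-likelihood test, Benjamini-Hochberg adjusted p under 0.05), 12 of them higher (30.8%) and 18 lower (46.2%) in 786. With TMM scaling, which sets a different zero, the same number was called but 16 were higher and 14 lower. The 3 libraries of each line did not overlap in 29 of the 30 called arms, 19p being the exception. An exact permutation test of 3 libraries against 3 cannot go below p = 0.1, so single arms rest on the fit across arms. Of the 8 arms often lost, 3 were higher in 786, 4 were lower and 1 was not called, with a median log2 difference of -0.05. Of the 10 arms often gained, 2 were higher, 3 were lower and 5 were not called, with a median of -0.03, beside -0.04 over all arms.

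**Figure D1:**
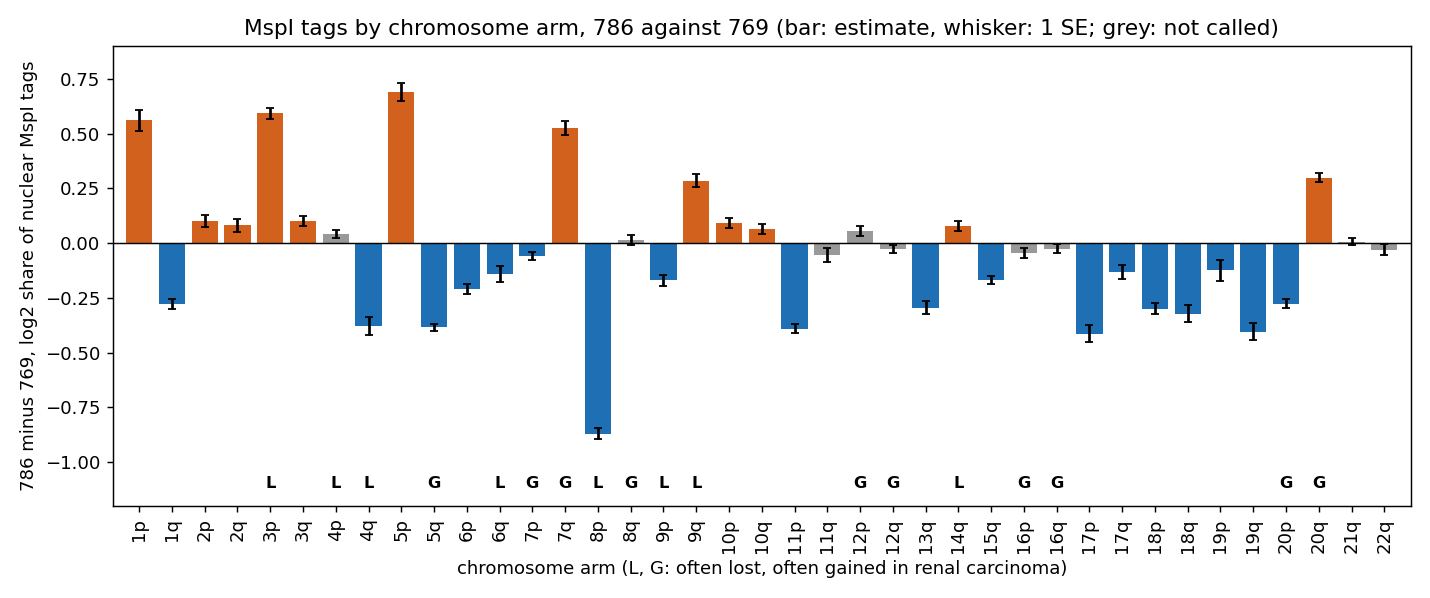
Difference between 786 and 769 in the log2 share of nuclear MspI tags for 39 chromosome arms. Bars are the estimates, whiskers 1 SE, orange and blue bars arms called higher and lower in 786, and grey bars arms not called; the letters L and G mark arms often lost and often gained in renal carcinoma. The bar of 8p reaches -0.87, and 5p, 3p, 1p and 7q stand highest.

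The short arm of chromosome 3 was lower in 769 than in 786, and its level was under that of the typical bin in both. It held 1.01%, 1.07% and 1.02% of the tags of the 769 control and AA samples, against 1.54%, 1.56% and 1.57% in 786. All libraries of 786 lay above all libraries of 769, and the difference was 0.59 ± 0.03 (log2, SE; edgeR adjusted p = 6.25e-07). Its level was 0.565 ± 0.039 (SD, n = 3) in 769 and 0.820 ± 0.026 (SD, n = 3) in 786, where 1 is the typical bin. The difference was not spread over the whole arm. In chr3:1-59000000 the level was 0.521, 0.541 and 0.481 in the 769 libraries and 0.909, 0.834 and 0.839 in those of 786, and 40 of its 59 bins of 1 Mb were called higher in 786. From 69 to 84 Mb the level was instead higher in 769, with 0.86 ± 0.05 against 0.76 ± 0.03 in 786 (SD, n = 3). The tag shares of the lines overlapped there and no bin was called. The bin that holds the promoter of PBRM1, a subunit of the PBAF chromatin remodelling complex, stood at 0.634 ± 0.037 in 769 and 0.981 ± 0.013 in 786 (SD, n = 3), a log2 difference of 0.57 ± 0.09 (SE), called by edgeR. The bin of SETD2, which trimethylates lysine 36 of histone H3, stood at 0.376 ± 0.044 and 0.572 ± 0.021, a difference of 0.54 ± 0.11. In both lines the SETD2 bin lay under the level of the arm. The promoter of VHL itself could not be placed on these sites.

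The short arm of chromosome 8 gave the largest log2 difference between the lines. It took 1.37%, 1.42% and 1.47% of tags in 769 and 0.759%, 0.787% and 0.789% in 786, with no overlap. The log2 difference was -0.87 ± 0.02 (SE; edgeR adjusted p = 4.32e-08), and 34 of its 44 tested 1 Mb bins were called lower in 786. Its level was 0.939 ± 0.009 in 769 and 0.515 ± 0.007 in 786 (SD, n = 3). The arm formed 1 segment of 44 bins, so the lower level ran over its whole length. Of the bins of 8p, 93.2% lay under a level of 0.75 in 786 and 22.7% in 769, beside 22.7% and 22.6% of all bins in the genome.

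Distal 4q was low in 786. In the short segments that follow 178 Mb on chromosome 4, joined here, 11 of 14 bins of 1 Mb were called lower in 786. The level there was 0.748, 0.700 and 0.957 in the 769 libraries and 0.284, 0.303 and 0.244 in those of 786, and the summed tags gave a log2 ratio of -1.40. A shorter stretch, chr4:147000001-157000000, stood at 0.57 ± 0.04 in 786 and 1.01 ± 0.11 in 769 (SD, n = 3), with 7 of its 10 bins called lower. It holds FBXW7, the substrate receptor of a ubiquitin ligase for cyclin E and MYC, whose 1 Mb bin differed by -0.86 ± 0.16 (log2, SE). FAT1, an atypical cadherin, lies in the distal stretch. Its bin gave 4335, 2139 and 1629 tags in 769 and 1134, 652 and 723 in 786, a log2 difference of -1.78 ± 0.13 (SE) and a level of 0.992 ± 0.093 against 0.303 ± 0.030 (SD, n = 3). From 62 to 130 Mb the mean log2 ratio was -0.15, and 4q as an arm differed by -0.38 ± 0.04 (SE, edgeR adjusted p = 5.72e-05). Segments of 1 or 2 bins outside these stretches varied more. They had means of -0.81 at chr4:60000001-62000000, 1.03 at chr4:130000001-131000000 and 0.88 at chr4:167000001-169000000, with no bin called. The 5 bins of 1 Mb that were lowest in 786 among those called without overlap were all from this distal stretch, from -1.90 ± 0.11 at chr4:184000001-185000000 to -1.68 ± 0.14 at chr4:183000001-184000000 (log2, SE). Neighbouring 4p was not called (0.04 ± 0.02, adjusted p = 0.0709 by edgeR) and was called higher under 5 of 16 alternatives, from 0.06 without sites not whole to 0.10 with TMM.

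Both arms of chromosome 9 were called, in opposite directions, and 9p held a stretch that went against its arm. The long arm, on the list of losses, was higher in 786, with 5.21%, 5.23% and 5.28% of tags against 4.35%, 4.35% and 4.21% in 769 (0.28 ± 0.03, log2, SE; edgeR adjusted p = 4.80e-05) and 45 of 77 bins called higher. Its level was close to the typical bin in 769, at 1.065 ± 0.016, and above it in 786, at 1.355 ± 0.033 (SD, n = 3). The bin of TSC1, which with TSC2 restrains mTOR signalling, was among those called, at 1.10 ± 0.06 in 769 and 1.54 ± 0.20 in 786. On 9p the arm as a whole was lower in 786 (-0.17 ± 0.03, log2, SE), yet chr9:16000001-23000000 went the other way. Its level was 0.495, 0.605 and 0.647 in the 769 libraries and 1.007, 0.983 and 1.021 in those of 786. That stretch holds CDKN2B, described with the short runs of absent sites.

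The remaining arms on the list of losses differed little between the lines. Arm 6q was lower in 786 by -0.14 ± 0.04 (log2, SE; edgeR adjusted p = 0.00833), a call that did not hold without 769 AA replicate 2 (-0.12, adjusted p = 0.0505) or with TMM (-0.08). Arm 14q was higher in 786 by only 0.08 ± 0.02 (edgeR adjusted p = 0.013), and that call did not hold without the 769 control (0.09, adjusted p = 0.083) or without the 786 control (0.09, adjusted p = 0.0848).

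A difference between the lines cannot show what both share, and the levels show the arms in which both stood apart from their own genome. With the density term, only 14q lay under 0.75 in both lines and only 8q lay over 1.25 in both, while 28 arms lay between these bounds in both. Without it 4 arms (3p, 4q, 9p and 14q) lay under 0.75 in both lines and 11 lay over 1.25 in both (8q, 9q, 10q, 16p, 16q, 17p, 17q, 19p, 19q, 20q and 22q). The level of 14q was 0.541, 0.514 and 0.522 in the 769 libraries and 0.554, 0.606 and 0.612 in those of 786. In 86.5% of the bins of 14q the level was under 0.75 in 769 and in 76.4% in 786, beside 22.6% and 22.7% over the genome. The level of 8q, the arm that carries MYC, was 1.569, 1.569 and 1.552 in 769 and 1.688, 1.606 and 1.657 in 786. The shares of 8q overlapped between the lines, and its log2 difference was 0.02 ± 0.02 (SE; edgeR adjusted p = 0.521), which was called with TMM (0.08). Without the term for CCGG density the level of 14q was 0.560 and 0.594 in 769 and 786, and that of 8q 1.27 and 1.37. With no normal DNA measured, an arm that stands apart in both lines cannot be told apart from one whose sites give fewer or more tags in any DNA.

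**Figure D2:**
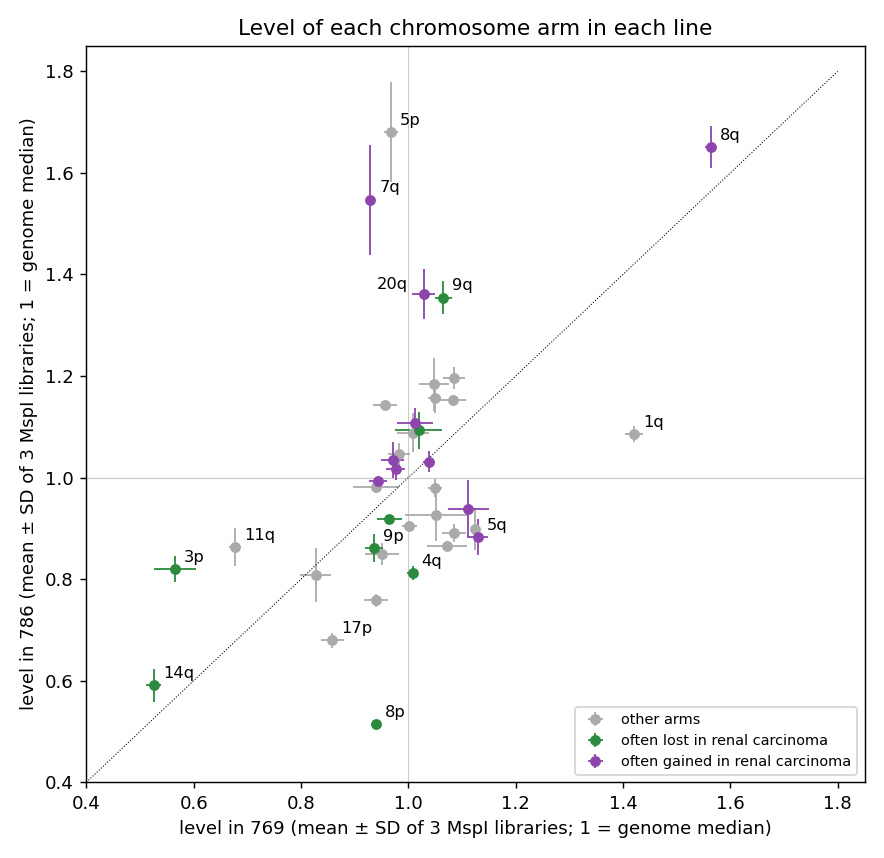
Level of each of 39 arms in 769 (horizontal) and 786 (vertical), as mean ± SD of 3 MspI libraries, with 1 as the typical bin of a line. Green arms are often lost and purple arms often gained in renal carcinoma; 14q and 8q lie near the dotted line of equal levels, at its ends, while 8p, 5p, 7q and 1q lie away from it.

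Among arms often gained, 7q and 20q were higher in 786. Arm 7q held 3.64%, 3.30% and 3.49% of tags in 769 and 5.14%, 4.89% and 4.99% in 786 (0.53 ± 0.03, log2, SE; edgeR adjusted p = 2.19e-06). Of its 97 bins of 1 Mb, 85 were called higher in 786 and none lower. The level rose to 1.547 ± 0.109 in 786 against 0.929 ± 0.003 in 769 (SD, n = 3), and among segments of at least 5 bins on 7q was highest in 786 in chr7:110000001-124000000, at 1.667, 1.941 and 1.884. Arm 7p followed neither direction. Its summed share was -0.06 ± 0.02 in 786 (log2, SE; edgeR adjusted p = 0.0273), while 3 of its bins were called higher and 2 lower, and the sum was 0.00 with TMM. That 7p call also did not hold without the 769 control (-0.07), the 786 control (-0.07), 769 AA replicate 1 (-0.07) or 2 (-0.04), or 786 AA replicate 2 (-0.05), nor with DESeq2 (-0.02) or the density correction (-0.02); it held under 5 of 16 alternatives. The bin of EGFR, the epidermal growth factor receptor on 7p, was at 0.863 ± 0.068 in 769 and 1.09 ± 0.09 in 786 and was not called (0.29 ± 0.11, edgeR adjusted p = 0.0562), though 8 of 18 alternatives called it higher, from 0.29 to 0.36. Arm 20q was higher in 786 by 0.30 ± 0.02 (edgeR adjusted p = 2.81e-06), with a level of 1.36 ± 0.05 against 1.03 ± 0.02 (SD, n = 3), and 20p was lower by -0.28 ± 0.02.

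Arm 5q, whose gain is one of the marks of this cancer, was lower in 786 and uneven in both lines. It took 3.23%, 3.35% and 3.36% of tags in 769 and 2.47%, 2.59% and 2.54% in 786 (-0.39 ± 0.02, log2, SE; edgeR adjusted p = 6.25e-07). Its proximal stretch, chr5:49000001-96000000, had a level of 0.51 ± 0.01 in 786 and 0.97 ± 0.06 in 769 (SD, n = 3), with 28 of 47 bins called lower. From 104 to 127 Mb, where 2 of 23 bins were called higher in 786, the levels of the lines overlapped, with 1.18 ± 0.08 in 786 and 1.06 ± 0.08 in 769 and a mean log2 ratio of 0.31. In chr5:153000001-163000000 the level was 1.37 ± 0.12 in 769 and 0.70 ± 0.05 in 786 (SD, n = 3), and 9 of 10 bins were called lower. In chr5:164000001-181000000 the level was 1.44 ± 0.05 in 769 and 1.09 ± 0.04 in 786. Here lies SQSTM1, an autophagy receptor held to be a target of 5q gain, whose bin had a level of 1.36 ± 0.17 in 769 and 0.926 ± 0.018 in 786 (log2 difference -0.68 ± 0.08, SE; called by edgeR). Arms 12p, 12q, 16p and 16q were not called and had log2 differences between -0.04 and 0.06, with levels from 0.94 to 1.04 in both lines. Arm 12p was called higher under 4 of 16 alternatives (TMM, DESeq2, thinning to the smallest library, and without 769 AA replicate 2, 0.07) and 16p lower under 2 (without sites not whole, -0.06, and without 769 AA replicate 2, -0.07).

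Arms outside both lists also differed. Arm 5p had the largest log2 difference upward in 786, at 0.69 ± 0.04 (SE, edgeR adjusted p = 2.81e-06). Its share was 1.95%, 2.09% and 1.91% in 786 and 1.22%, 1.18% and 1.29% in 769. Of its 46 bins of 1 Mb, 38 were called higher and none lower. It carries TERT, the catalytic subunit of telomerase, whose bin stood at 1.80 ± 0.04 in 786 and 1.23 ± 0.13 in 769 (SD, n = 3). On chromosome 1 the 2 ends went in opposite directions. In chr1:1-29000000 the level was 0.538, 0.523 and 0.515 in the 769 libraries and 1.133, 1.134 and 1.156 in those of 786, and 28 of 29 bins were called higher in 786. The bins of MTOR, the kinase at the centre of growth signalling, and of ARID1A, a subunit of the BAF complex, lie there, with log2 differences of 0.96 ± 0.09 and 1.09 ± 0.09 (SE). In chr1:158000001-250000000 the level was 1.45 ± 0.02 in 769 and 1.07 ± 0.02 in 786, and 36 of 92 bins were called lower in 786. Chromosome 11 turned over within its long arm. Up to 81 Mb, chr11:43000001-81000000 stood at 1.08 ± 0.02 in 769 and 0.86 ± 0.01 in 786, and chr11:106000001-135000000 at 0.55 ± 0.02 and 0.93 ± 0.01 (SD, n = 3), with 28 of its 29 bins called higher in 786. These opposite stretches gave 11q a sum that was not called (-0.05 ± 0.03, edgeR adjusted p = 0.147) but was called lower without 769 AA replicate 2 (-0.09, adjusted p = 0.0143). Arm 11p was lower in 786 by -0.39 ± 0.02. Arms 17p and 19q were lower by -0.41 ± 0.04 and -0.40 ± 0.04 (log2, SE), and each of these 3 was called by edgeR.

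**Figure D3:**
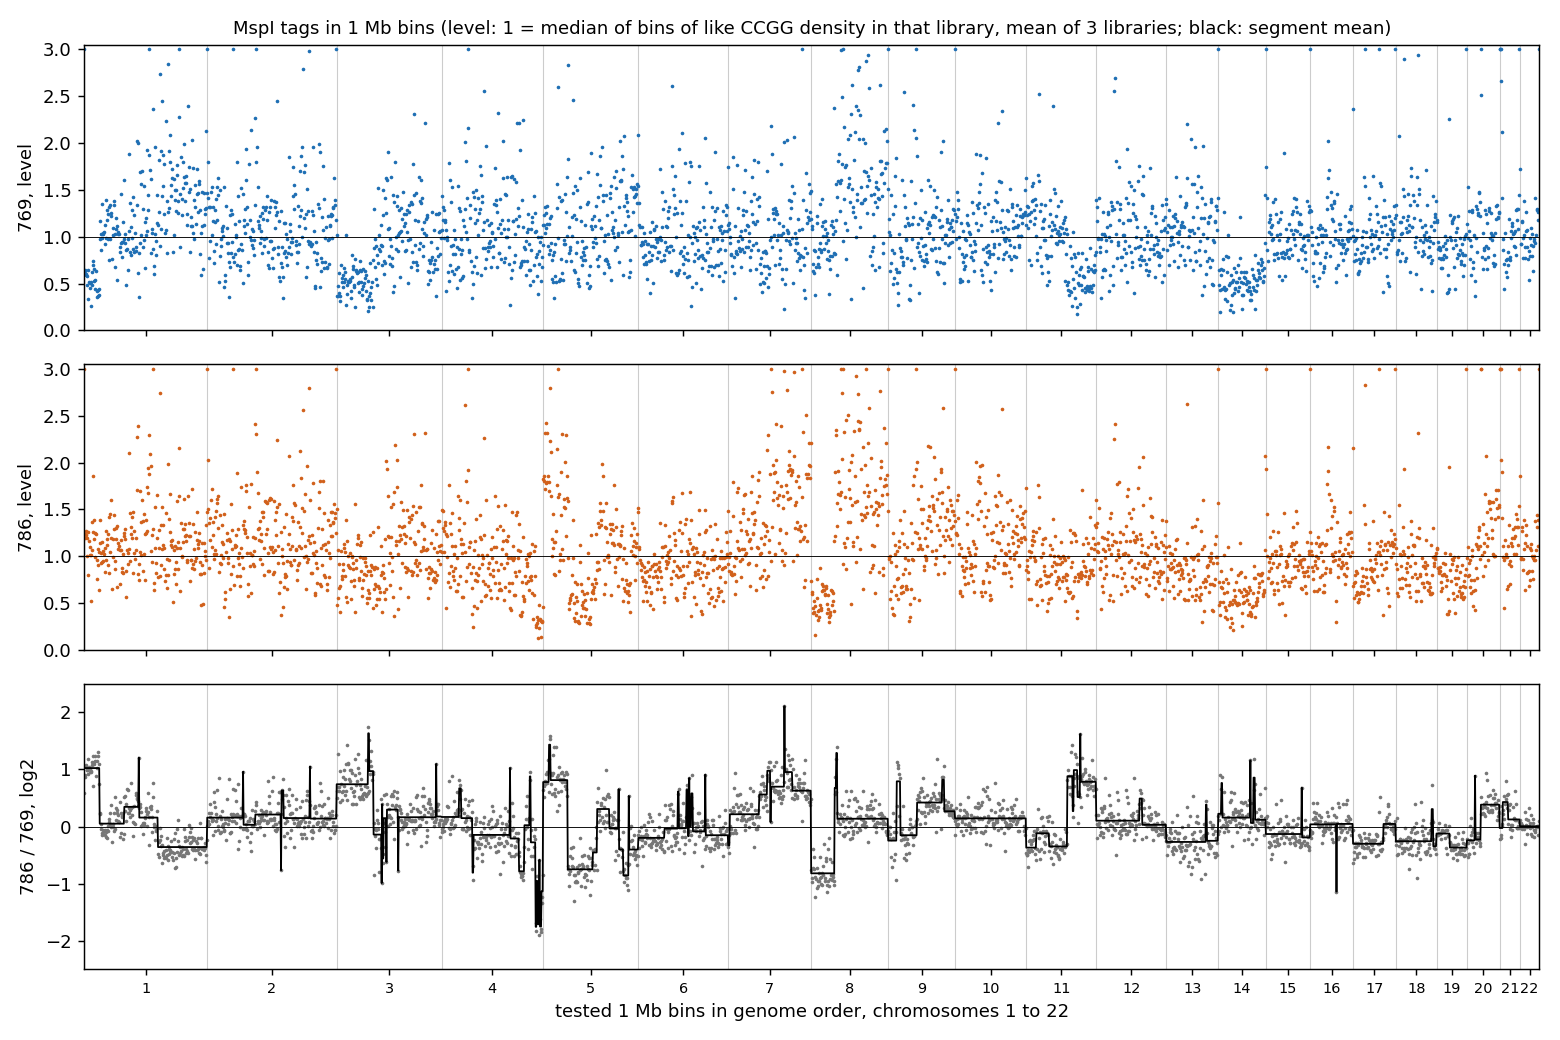
Level of 769 (top) and of 786 (middle), and log2 ratio of 786 to 769 (bottom), in 2720 bins of 1 Mb in genome order, chromosomes 1 to 22. Points are means of 3 MspI libraries, values beyond the axis are drawn at 3, and the black line is the segment mean; chromosome 14 is low and 8q high in both upper panels, while 3p, 8p and distal 4q part in the lowest one.

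Over the whole genome 647 of 2720 bins of 1 Mb were called (23.8%), 346 higher (12.7%) and 301 lower (11.1%) in 786. A least squares segmentation of the log2 ratio gave 133 segments, of which 85 had at least 5 bins and held 96.7% of the bins. Of those 85, 15 had a mean of 0.5 or more and 4 a mean of -0.5 or less. The 5 bins highest in 786 among those called without overlap lay on chromosomes 3, 5, 7 and 11. Bin chr7:109000001-110000000 gave 56, 53 and 14 tags in the libraries of 769 and 218, 200 and 138 in those of 786 (2.11 ± 0.49, log2, SE; edgeR adjusted p = 0.00386). Bins chr3:60000001-61000000 (1.82 ± 0.61) and chr3:59000001-60000000 (1.72 ± 0.52) followed, then chr11:105000001-106000000 (1.64 ± 0.42) and chr5:12000001-13000000 (1.60 ± 0.35). The first of those on chromosome 3 was no longer called without 769 AA replicate 1 (2.17) or 2 (1.12) or without 786 AA replicate 1 (1.58) or 2 (1.72), nor without the treatment term (1.45). The second was not called without 786 AA replicate 1 (1.58). The bin on chromosome 11 was not called without the 769 control (1.52), the 786 control (1.52) or 786 AA replicate 1 (1.44).

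Of 20403 bins of 100 kb, 316 were called (1.55%), 187 higher (0.917%) and 129 lower (0.632%) in 786, and each 100 kb bin held far fewer tags. That count depended on which library was left out. It was 65 without the 769 control, 98 and 66 without its AA replicates 1 and 2, 60 without the 786 control, and 259 and 152 without its AA replicates 1 and 2. No run of at least 3 neighbouring 100 kb bins, all called in the same direction and at least 1 log2 unit from the median of their arm, was found. In simulated counts, 0% of 100 kb bins changed 1.5-fold and 7% of those changed 2-fold were called. For 1 Mb bins these rates were 59% and 83%. The absence of such runs therefore does not show that focal changes were absent. With runs of at least 2 bins there were 8, of which 6 were lower in 786 on distal chromosome 4 and 2 higher in 786 on chromosome 1. At chr1:149100001-149200000 the libraries of 769 held 90, 57 and 20 tags and those of 786 held 665, 548 and 523, a difference of 3.37 ± 0.34 (log2, SE; edgeR), and this bin stayed called under every alternative run. At chr1:176200001-176300000 the 769 libraries held 149, 66 and 79 tags and the 786 libraries 2, 0 and 0, which was called by edgeR but not without 769 AA replicate 2 (adjusted p = 0.0941). The other bins highest in 786 without overlap were chr3:110900001-111000000, with 0, 1 and 0 tags against 19, 100 and 43, chr2:4500001-4600000, with 7, 1 and 0 against 129, 46 and 51, and chr9:103000001-103100000, with 28, 34 and 0 against 234, 195 and 185. The others lowest in 786 included chr5:51800001-51900000, with 93, 36 and 54 tags in 769 against 1, 0 and 0, and chr20:18900001-19000000, with 367, 29 and 37 against 17, 0 and 3. Bins chr14:50900001-51000000, with 183, 90 and 42 tags against 1, 3 and 2, and chr5:180300001-180400000, with 476, 158 and 76 against 16, 25 and 10, adjoin or overlap runs of absent sites described next. All of these were called by edgeR, and each lost its call when at least 1 library was left out.

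Shorter stretches were followed site by site. Runs of at least 12 listed sites were sought in which every site had under 1 MspI tag over the 3 libraries of 1 line and at least 5 sites were tagged in each library of the other line. This rule was set after the values were seen and itself fixes the low counts in 1 line, so the runs are described with no test. It gave 5 runs in 786 and 4 in 769. Shorter runs, of 8 to 11 sites and without the condition on the other line, numbered 8 in 786 and 99 in 769. Of 885519 sites with at least 1 MspI tag, 14.02% had none in 786 and 23.3% none in 769. The number of sites tagged did not follow the number of tags. It was 419020, 556245 and 333336 in the 769 control and AA replicates 1 and 2, and 535013, 314244 and 613191 in those of 786. How far this sets the counts of untagged sites in each line was not tested.

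The run with the most sites lay on 14q and was absent in 786. At chr14:50980929-51074432 there were 27 sites, with 229.5, 103.5 and 72.5 tags in the 769 libraries and 0, 0 and 0.5 in those of 786, where a part of a tag comes from a read placed at several sites. The 769 tags scaled to the nuclear tags of 786 amount to 409. The HpaII libraries showed the same, with 390, 307 and 87 tags in 769 and 0 in all 3 of 786. The nearest 786 tags on both sides were 142 kb apart. RefSeq promoters matched to these sites by the spacing of their CCGG letters put the promoters of MAP4K5, a STE20-type kinase, and of its neighbour ATL1, an atlastin GTPase that shapes the endoplasmic reticulum, inside the run. In the RefSeq gene order SAV1, a scaffold of the Hippo pathway, follows ATL1, and its promoter could not be placed. The flanking promoters of CDKL1 and NIN lay outside the run. Beyond this run 786 had a level of 0.591 ± 0.032 (SD, n = 3) over 14q, so the run lay in an arm already low in both lines.

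The run on 9p was also absent in 786 and reached into the promoter of CDKN2B, an inhibitor of the cyclin D kinases that is deleted together with its neighbour CDKN2A in many cancers. At chr9:21990049-22009353 there were 22 sites with 111, 132 and 141 MspI tags in the 769 libraries and 0, 0 and 0.5 in those of 786, where 388 would match the tags of 769. HpaII gave 313, 454 and 49 tags in 769 and 0 in each library of 786. The nearest 786 tags lay at 21971249 and 22105958, which are 135 kb apart. CDKN2A precedes CDKN2B in the RefSeq gene order, and its own promoter was not placed. The surrounding stretch of 7 bins was higher in 786 than in 769, as given above. The absent sites in 786 thus lay in a stretch where 769 had the lower level. In the 1 Mb bin that holds the CDKN2B promoter, however, the levels of the lines overlapped. They were 0.327, 1.26 and 1.07 in the 769 libraries and 1.61, 1.24 and 1.31 in those of 786. The 1 Mb bin of CDKN2B was not called (1.04 ± 0.39, log2, SE; edgeR adjusted p = 0.0661), while 7 of 18 alternatives called it, from 1.00 with DESeq2 to 1.32 without 786 AA replicate 2.

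The promoters that lie in the absent runs of 786 are shown because they tie the runs to genes: the CCGG sites, in capitals, are the letters that MspI cuts. The spacing of the listed ones placed each sequence: all 4 in MAP4K5, but 3 of 4 in CDKN2B and in ATL1. They are RefSeq sequences of GRCh38.p14, from 250 bases before to 50 after the gene's start, written in the direction of the gene; MAP4K5 and CDKN2B are on the minus strand and ATL1 on the plus strand. Each holds 4 CCGG, and 23.7% of the promoter sequences in the table hold at least 4 of these letters, a palindrome that reads alike on both strands.
CDKN2B: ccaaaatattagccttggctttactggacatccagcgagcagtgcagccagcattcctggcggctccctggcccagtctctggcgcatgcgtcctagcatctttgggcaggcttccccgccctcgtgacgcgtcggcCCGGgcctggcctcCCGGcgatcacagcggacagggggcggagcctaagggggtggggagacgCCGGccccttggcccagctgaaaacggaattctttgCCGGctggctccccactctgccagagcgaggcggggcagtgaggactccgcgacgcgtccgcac
MAP4K5: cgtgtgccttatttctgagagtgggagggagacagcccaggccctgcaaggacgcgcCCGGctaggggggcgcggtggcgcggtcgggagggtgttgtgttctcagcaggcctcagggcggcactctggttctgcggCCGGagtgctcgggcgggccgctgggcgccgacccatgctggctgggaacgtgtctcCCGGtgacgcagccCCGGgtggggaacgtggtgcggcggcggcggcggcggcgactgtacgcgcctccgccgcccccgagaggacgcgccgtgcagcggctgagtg
ATL1: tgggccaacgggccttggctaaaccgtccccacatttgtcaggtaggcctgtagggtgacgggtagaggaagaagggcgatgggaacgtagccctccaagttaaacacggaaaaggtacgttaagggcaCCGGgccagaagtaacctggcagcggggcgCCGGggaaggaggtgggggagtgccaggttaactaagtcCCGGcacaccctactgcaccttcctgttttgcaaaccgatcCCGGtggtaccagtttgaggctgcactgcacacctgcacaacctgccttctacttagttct
The listed sites of these promoters lie in hg19 from 22009317 to 22009402 on chromosome 9, from 50999328 to 50999479 on chromosome 14 and from 50999681 to 50999750 on chromosome 14. At the CDKN2B promoter the HpaII libraries held 56, 9 and 26 tags in 769 and the MspI libraries 0, 18 and 2, while no library of 786 held any. At the MAP4K5 promoter the MspI tags were 68, 23 and 8 in 769 and 0 in each library of 786, and the HpaII tags 115, 49 and 15 against 0. The ATL1 promoter had 0, 1 and 0 MspI tags and 20, 15 and 6 HpaII tags in 769, and 0 in 786.

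Other runs absent in 786 lay on chromosomes 4 and 5. At chr4:187877219-187909391, 19 sites had 146.333, 72.25 and 42.2 tags in 769 and 0 in each library of 786. The 769 tags scaled to the nuclear tags of 786 amount to 263. HpaII gave 0 tags in every library of both lines at these sites, so it gives no second reading of them. This run lies in the distal 4q stretch, where 11 of 14 bins of 1 Mb were called lower in 786. The next promoter that could be placed after it is that of ZFP42, a zinc finger gene. How far that promoter lies from the run is not given here. At chr5:180396789-180417610, 16 sites had 285, 179 and 145 tags in 769 and 0 in 786, where 615 would match the tags of 769. HpaII gave 0, 42 and 4 tags there in 769 and 0 in 786. The promoter of ZFP62 was placed before this run, and BTNL8, BTNL3 and BTNL9, of the butyrophilin-like family, come next in the gene order. A deletion between BTNL8 and BTNL3 is common in people. Inherited and acquired differences cannot be told apart in these lines, because normal DNA of the same patients was not analysed here. The fifth run in 786, at chr4:1234112-1234420, and that in 769 at chr21:47712448-47713632, consist wholly of sites whose tags were split over several places, and both lines had tags in sum.

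In 769 the run with the most sites lay on 3p. At chr3:60718391-61060229, 21 sites had 130, 119 and 61.4 tags in the 786 libraries and 0 in each library of 769. The 786 tags scaled to the nuclear tags of 769 amount to 307. HpaII gave 0 tags in 769 and only 0, 6 and 1 in 786. The nearest 769 tags were 399.8 kb apart. FHIT, a large gene known to span a common fragile site, comes in the gene order just before the next placed promoter and was not placed itself. The 100 kb bin chr3:60900001-61000000 held 0 tags in the 769 libraries and 68, 88 and 17 in those of 786, and no fold is read from its fit. It was called by edgeR (adjusted p = 0.0444), but leaving out any 1 of the 6 libraries lost the call, with adjusted p from 0.0595 to 0.258. Further runs in 769 lay at chr5:30963160-31127243, with 13 sites and 35, 111 and 23 tags in 786, and at chr7:131810673-131831448, with 12 sites and 72, 108 and 100 tags in 786. HpaII gave 0 tags in 769 and 0, 1 and 0 in 786 at the run on chromosome 5. At the run on chromosome 7 it gave 0, 1 and 0 in 769 and 0, 42 and 19 in 786. The run on chromosome 5 lies between the placed promoters of LINC02211 and C5orf22, where the order of protein-coding genes has CDH9, LOC124901178, CDH6 and DROSHA. That on chromosome 7 lies between those of MKLN1-AS and CHCHD3, where it has PODXL and PLXNA4. Gene order alone does not tell which of these genes a run touches.

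**Figure D4:**
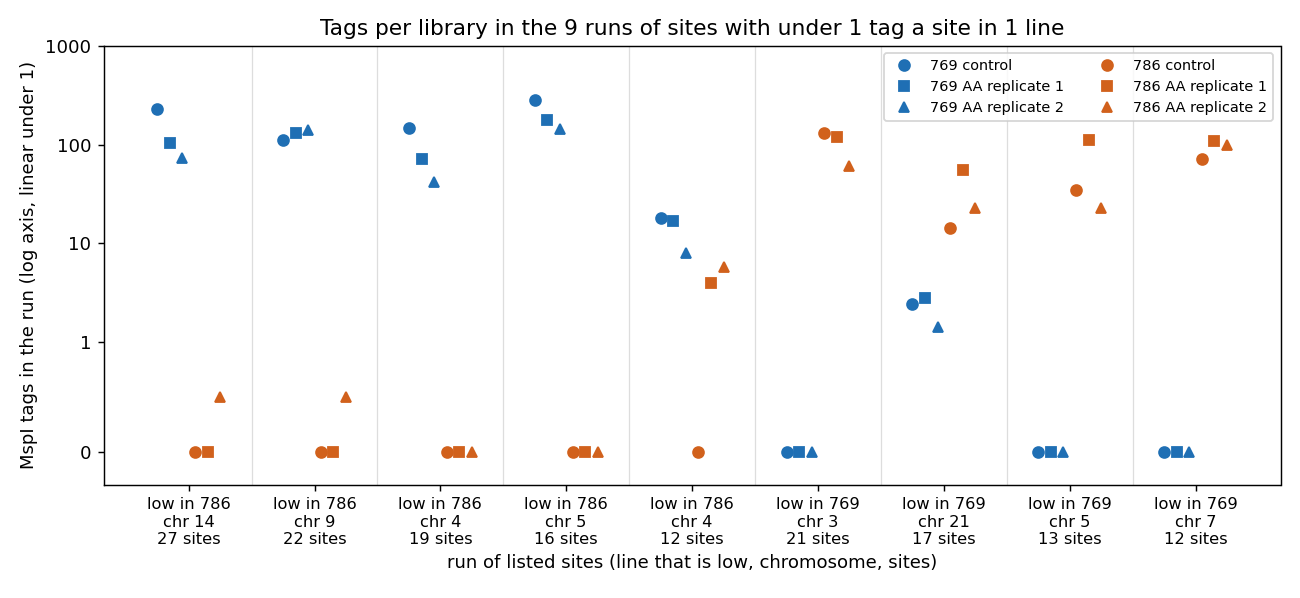
MspI tags of each library in the 9 runs of sites with under 1 tag a site in 1 line, on a log axis that is linear under 1. Blue marks are 769 and orange marks 786, circles the controls, squares AA replicate 1 and triangles AA replicate 2; in 7 runs the low line sits at 0 or 0.5, and in the runs of 12 sites on chromosome 4 and 17 sites on chromosome 21 both lines have tags.

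A coarser search, for runs of at least 2 bins of 100 kb in which the tags of a line were under 0.05 times its median per reference site, gave 297 runs in 769 and 150 in 786. These were mostly bins with few CCGG sites, with a median of 26.5 and 25.8 reference sites per bin in 769 and 786, against 57.1 over all bins. In 61 of the runs of 769 and 74 of those of 786 the other line was under the same bound. The libraries tagged unequal numbers of sites, as given above, and their part in the larger count of 769 was not tested. Among the runs of 1 line, chr3:60600001-61100000 in 769 had the most reference sites, 192, with 0, 2 and 0 tags against 142, 120 and 70 in 786. In 786 it was chr14:50900001-51100000 with 113 reference sites, 1, 3 and 2 tags against 230, 104 and 82 in 769. No other run of the 12 with the most sites in 786 had the other line above 0.668 times its median, and no other run of 769 above 0.413. At chr4:180600001-180800000, in distal 4q, 786 had 0, 2 and 7 tags against 110, 49 and 44, and at chr7:8500001-9000000 769 had 1, 2 and 0 tags against 133, 16 and 46.

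A list of 31 genes known in renal carcinoma or in cancer at large was read through the 1 Mb bin that holds each placed promoter. For 17 of them a promoter was placed in a tested bin. Bins of 6 genes were higher in 786 (SETD2, PBRM1, TERT, ARID1A, MTOR and TSC1), 3 were lower (SQSTM1, FAT1 and FBXW7) and 8 were not called, where 23.8% of all bins were called. Among those not called, the bin of NF2, the Hippo pathway regulator on 22q, had levels of 0.889 ± 0.039 in 769 and 0.819 ± 0.088 in 786, and that of EPAS1, which encodes HIF-2α, had 1.24 ± 0.07 and 1.28 ± 0.20 (SD, n = 3). The bin of NOTCH1 on 9q had 1.30 ± 0.05 and 1.49 ± 0.04 and was not called (0.17 ± 0.06, adjusted p = 0.0717 by edgeR). It was called under 4 of 18 alternatives, among them the correction for CCGG density, which gave 0.28 (adjusted p = 0.0018).

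The HpaII libraries, made from the same DNA, had their arm differences in the same direction in 28 of the 30 called arms. The exceptions were 7p (0.10 with HpaII) and 10p (-0.05 with HpaII). In 25 of the 30 the HpaII libraries of the lines did not overlap. For 8p the HpaII difference was -0.85, for 5p 0.97, for 3p 0.47 and for 7q 0.69 on the log2 scale. Across the 39 arms the 2 sets of differences had a Pearson r of 0.957, given as a description, since both enzymes cut the same 6 DNA samples. HpaII tags also follow methylation, and the 786 control HpaII library held only 160466 nuclear tags.

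Treatment did not move these shares by a called amount. For AA minus control, 0 of 2720 bins of 1 Mb were called by edgeR (0%), 110 had an unadjusted p under 0.05 and DESeq2 called 2. Over arms, edgeR called 0 of 39 (8 at an unadjusted p under 0.05) and DESeq2 0, and over 100 kb bins edgeR called 0 of 20403 (515 unadjusted) and DESeq2 3. The largest difference of an arm between AA and control was 0.14 on the log2 scale in size, against 0.87 between the lines. With edgeR none of the 2720 bins was called for a difference between the lines in the effect of AA (60 at an unadjusted p under 0.05). Each line had 1 control, so these tests pool the spread over both lines, and the absence of calls does not show that the effects were alike.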

How the data were processed

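Per the labels' protocols, DNA was digested with HpaII and MspI in separate reactions and made into HELP-tagging libraries with 18 PCR cycles. The authors deposited, for each library, expected counts of tags for each tagged CCGG site, on its left, on its right and in sum. Between 8.81% and 11.5% of MspI sites had counts that were not whole. Coordinates are hg19, per the submitters' processing notes, while an aligner is not named in any source used here.

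Summed counts on chromosomes 1 to 22 were added in bins of 1 Mb and 100 kb and in arms, split at the longest stretch without a listed site. Bins needed 100 (1 Mb) or 10 (100 kb) reference sites, counted from the running site numbers, and a mean of 20 tags; arms needed 1000 reference sites. Rounded counts were fitted with edgeR 4.0.16 (R 4.3.3) on nuclear tag totals, with terms for treatment and line, adjusted by Benjamini-Hochberg and called under 0.05. Each SE was derived from the test, as the size of the log2 difference over the square root of its F statistic. The code was tested on simulated data. Segments came from least squares with a cost of 10 noise variances a break. Levels used a running median over 101 bins of like CCGG density. DESeq2 1.42.0, TMM, thinning, other filters, a density correction, a replicate block and leaving out libraries were alternatives. Python 3.11.15, numpy 2.4.6, pandas 2.3.3 and matplotlib 3.10.9 were used.

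Bins and runs were named by rule: the 5 largest called bins in each direction without overlap, all listed arms and the 5 largest called arms in each direction, and the 12 near-empty runs with the most sites. Stretches and arms beyond this (1q, 11q) were chosen after their values were seen. The plan named no genes, since no annotation of the files' build was used. Promoters of 8889 genes were placed afterwards, out of 35116 RefSeq sequences (GRCh38.p14), by CCGG spacing. Of 6635 placed in 1 place by at least 4 listed sites, 99.8% fell on the chromosome RefSeq gives; others needed at least 3 sites between neighbours in RefSeq order. MAP4K5 was placed by the first rule, CDKN2B and ATL1 by the second. No coordinate was carried between builds. Members, lists and genes were chosen with earlier results of these data known.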

Additional observations from a re-analysis of the deposited data

How the results depend on the processing

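The count of called 1 Mb bins (647) stayed within 1.5 times under all alternatives run, from 442 to 617 with a library left out, and that of arms (30) from 23 to 29. The count of 100 kb bins (316) became 923 with DESeq2, 734 with no low count filter and 597 with at least 20 tags in every library, and ran from 60 to 259 with a library left out; the cause was not tested. Bins of 1 Mb called for AA numbered 0, with 2 by DESeq2, 1 with the density correction and from 0 to 4 with a library left out. Segments numbered 133, 300 at a cost of 5 noise variances and 64 at 20, and from 135 to 155 with a library left out. Focal runs numbered 0, 8 with runs of 2 bins, and from 0 to 2 with a library left out, the 2 appearing without 786 AA replicate 1. Arms with a level under 0.75 or over 1.25 in either line numbered 11, and 28 without the density term. Near-empty runs numbered 297 in 769 and 150 in 786, 545 and 289 under 0.1 times, and 52 and 23 with at least 3 bins. Runs of sites with under 1 tag a site in 769 numbered 4, but 2 with at least 15 sites and 8 with at least 10, chosen after seeing the data. The 4 and the 2 both include the run of 17 sites on chromosome 21, in which 769 had 2.4, 2.8 and 1.4 tags.

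The arms and gene bins whose sign changed had log2 differences between -0.10 and -0.03. With TMM, 22q came to 0.0316, 7p to 0.0020, 11q to 0.0067, 12q to 0.035, 16p to 0.0165 and 16q to 0.0361. With DESeq2, 12q came to 0.0138 and 16q to 0.0150. With the density correction 16p came to 0.0217, 16q to 0.0201 and the bin of TSC2 to 0.0051, and to 0.0217, 0.0201 and 0.0056 with the replicate block as well. TMM moved all arms by 0.06.

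The labels do not say what the AA numbers pair, and the AA1 minus AA2 differences of the lines had a correlation of -0.03 over 1 Mb bins. With the replicate block the counts were 675 bins of 1 Mb and 28 arms, and focal runs numbered 0. The block ended the call of 7p (-0.06) and of the 100 kb bins from 60900001 and 110900001 on chromosome 3 and from 4500001 on chromosome 2, and it made the 1 Mb bins of CDKN2B (1.04) and EGFR (0.29) called. Thinned to the smallest library, with 3473118 nuclear tags, 17204 bins of 100 kb could be tested and 373 were called.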

Other observations

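Mitochondrial tags made up 2.3%, 0.407% and 2.13% of all MspI tags in the 769 control and AA replicates 1 and 2, and 3.86%, 2.04% and 1.67% in the libraries of 786. They were left out of the nuclear shares, and the ranges of the lines overlapped. The pericentromeric bins of chromosome 21, chr21:9000001-17000000, had a level of 4.68 ± 0.51 (SD, n = 3) in 769 and 4.22 ± 0.42 in 786, the highest of the segments with at least 5 bins in both lines.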
